A study of Mus musculus with 1016 samples.

Results

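In mouse preimplantation embryos, 4355 genomic bins of 50 kb were selected on measured replication states, as bins that ranked early at the 2-cell stage and late in morulae. These are 9.42% of the 46235 bins that could be ranked, out of 49264 bins on chromosomes 1 to 19 of GRCm38, and they cover 217.75 Mb. The rule used odd-numbered cells only. In each of the 2-cell and morula tables, bins were ranked by the share of odd-numbered cells in which the bin had replicated, and a bin was taken when its percentile rank was 0.6 or more at the 2-cell stage and 0.4 or less in morulae. A rank of 1 is the earliest bin and 0 the latest. The members were then described in the even-numbered cells of both tables and in all cells of the 12 other tables. In these cells the late position in morulae held, whereas at the 2-cell stage the members lay close to the middle of all bins, so the early side of their name held only in part.

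Replication timing is the order in which the parts of a genome are copied during S phase. In differentiated cells, gene-rich and active DNA at the inside of the nucleus tends to be copied early, and gene-poor DNA at the nuclear lamina late, in blocks of up to megabases. The mouse embryo passes through its first cell cycles with maternal products and activates its own genome at the 2-cell stage. Long genes for synaptic and adhesion proteins of neurons lie in AT-rich, gene-poor DNA, and many of them are copied late in cells that do not express them.

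Single-cell Repli-seq reads the DNA copy number of single cells in S phase, and the deposited value is a binary state for each bin, 1 where the cell had replicated it and 0 where it had not. Zygotes (66 cells used), 2-cell (34 odd-numbered cells to choose and 29 even-numbered cells to describe), 4-cell (55), 8-cell (56), 16-cell (40), morula (24 to choose and 23 to describe) and inner cell mass (ICM, 70) cells came from (C57BL/6J x CBA)F1 females mated with DBA/2J males and were collected by the hour after hCG: zygotes at 20 to 26 h, 2-cell embryos at 32 to 40 h, 4-cell embryos at 50 to 56 h, 8-cell embryos at 66 to 72 h, 16-cell embryos at 77 to 80 h, morulae at 90 to 96 h and ICM at 96 to 104 h. IVF zygotes (57) had the same parental strains and were collected from 5.5 h after insemination. Parthenotes (57) were F1 oocytes activated with 10 mM strontium for 2 h and collected 5.5 to 12 h after activation, and maternal (21) and paternal (17) pronuclei were isolated from zygotes at 21 to 25 h and carry the F1 and the DBA/2J genome. The 2-cell embryos of 3 further tables had been kept in 0.1 mg/mL α-amanitin (42 cells) or 100 µM DRB (67 cells) from 17 h after hCG, or injected with 2 µg/µL Kdm5b mRNA at 18 h (56 cells), and were collected at 34 to 40 h. α-Amanitin and DRB block RNA polymerase II, and KDM5B removes methyl groups from histone H3 lysine 4. All embryos were grown in KSOM, cells had a replication score (the percent of called bins replicated) of 10 to 90%, and a bin was ranked where at least 1 choosing cell was called in both tables.

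The labels name no embryo or culture, so the cells of a group count as 1 sample. No test was made, and all values are descriptions. With 23 morula cells the exact binomial (Clopper-Pearson) 95% interval of a bin replicated in about 50% of the cells reaches 21.30 percentage points to each side, with 29 2-cell cells 19.01 points and with 70 ICM cells 12.2 points. These intervals cover counting error only. Read depth is unknown from the states, and the tables hold no expression, so stage and cell type rest on the labels. Nearly all cells were called at the members, with a median of 29 of 29 2-cell and 23 of 23 morula cells per bin. Within a stage, cells of different collection hours differed at the members. Values with and without the cells of 72 h (8-cell) and of 77 h (16-cell) are given below, and other hours differed too.

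The sequences below belong to the domains (runs of adjacent members) whose share of replicated cells differed most between morulae and the 2-cell stage. They are short examples of the bases inside them and at RefSeq gene starts. CpG dinucleotides are in capitals. The first is the centre of a domain without protein-coding genes, chr13:26074901-26075100, which holds 0 CpG in 200 bases (plus strand), has a GC content of 37.0% and is repeat-masked over 96.5% of its bases. The whole domain had 5.00 CpG per kb, so this window does not stand for it. The others are the 250 bases upstream of a RefSeq gene start (GRCm38.p6, 5′ to 3′ on the strand of the gene) at Lsamp (chr16:39984114-39984363, plus strand), Chl1 (chr6:103510626-103510875, plus strand), Cntn6 (chr6:104492794-104493043, plus strand) and Pcdh7 (chr5:57717831-57718080, plus strand).
chromosome 13 domain centre: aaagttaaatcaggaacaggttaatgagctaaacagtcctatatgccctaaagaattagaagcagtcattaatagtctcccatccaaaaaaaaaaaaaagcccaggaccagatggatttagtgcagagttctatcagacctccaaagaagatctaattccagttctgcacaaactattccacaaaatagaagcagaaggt
Lsamp: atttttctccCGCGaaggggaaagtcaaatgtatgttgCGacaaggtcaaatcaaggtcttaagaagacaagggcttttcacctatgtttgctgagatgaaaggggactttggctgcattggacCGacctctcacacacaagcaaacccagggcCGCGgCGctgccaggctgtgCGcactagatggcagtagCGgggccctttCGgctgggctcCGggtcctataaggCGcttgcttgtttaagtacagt
Chl1: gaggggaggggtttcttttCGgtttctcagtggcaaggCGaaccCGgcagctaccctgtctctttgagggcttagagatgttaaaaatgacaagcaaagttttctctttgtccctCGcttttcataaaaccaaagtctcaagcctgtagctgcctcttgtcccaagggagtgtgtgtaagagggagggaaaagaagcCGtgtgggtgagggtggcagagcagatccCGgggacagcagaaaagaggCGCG
Cntn6: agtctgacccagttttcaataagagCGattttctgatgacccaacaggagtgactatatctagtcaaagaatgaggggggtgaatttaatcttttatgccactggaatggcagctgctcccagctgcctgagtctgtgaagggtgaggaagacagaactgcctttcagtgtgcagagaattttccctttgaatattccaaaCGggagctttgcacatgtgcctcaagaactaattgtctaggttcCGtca
Pcdh7: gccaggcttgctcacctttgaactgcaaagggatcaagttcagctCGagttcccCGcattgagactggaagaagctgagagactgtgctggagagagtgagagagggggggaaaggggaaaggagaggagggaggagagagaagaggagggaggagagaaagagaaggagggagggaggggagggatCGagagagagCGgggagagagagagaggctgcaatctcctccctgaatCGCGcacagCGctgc
The last upstream sequence, of Dscam (chr16:97170736-97170985, minus strand), lies in a member domain whose share of replicated cells was among the least late in morulae.
Dscam: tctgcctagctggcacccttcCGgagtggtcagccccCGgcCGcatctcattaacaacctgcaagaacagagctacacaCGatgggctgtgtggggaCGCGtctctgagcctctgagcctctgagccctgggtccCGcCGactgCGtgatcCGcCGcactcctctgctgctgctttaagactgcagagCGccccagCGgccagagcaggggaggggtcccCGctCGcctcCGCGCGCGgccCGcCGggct
Lsamp had 12 CpG in these 250 bases, Chl1 8, Cntn6 3, Pcdh7 7 and Dscam 21. The bases of Chl1 and Cntn6 lie inside the spans of these genes in the GENCODE models used below, and those of Pcdh7 in part. Syt1, whose domain was also among the least late (sequence not shown), had 8, as many as Chl1. The least late domains thus differed from each other in CpG at their gene starts. Of all 30040 upstream sequences in ranked bins, 66.8% had as few as Lsamp or fewer, 57.7% as few as Chl1, 35.7% as few as Cntn6, 55.02% as few as Pcdh7 and 84.2% as few as Dscam. Over the 946 upstream sequences that start in members, the median was 3 CpG (interquartile range 1 to 9) and the median GC content 46%, against 6 CpG (2 to 16) and 52.8% over all. These sequences belong to 772 genes in the members and 24635 over all. They were not restricted to protein-coding genes, and the part of gene type in the CpG counts was not tested. CpG-poor promoters were more common in the members than over all ranked bins. In members 58.5% held 4 CpG or fewer, against 42.4% of all, and 22.7% held 10 or more, against 39.7% of all. In bins late in both morula and 2-cell cells they were more common still, with a median of 2 CpG, 74.9% holding 4 or fewer and 13.7% holding 10 or more.

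The values that chose the bins are given for description only. In odd-numbered cells the members had replicated in a median of 29.2% of morula cells and 58.8% of 2-cell cells, at median ranks of 0.222 in morula and 0.774 in 2-cell cells. The 1389 members within 0.05 of a rank limit had medians of 37.5% in morula and 52.9% in 2-cell cells, and the 794 bins just outside had 54.2% in morula and 55.9% in 2-cell cells.

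In the cells that the rule did not use, the members were late in morulae and near the middle of the genome at the 2-cell stage. They had replicated in a median of 34.8% of the even-numbered morula cells (interquartile range 21.7 to 47.8%) and 55.2% of the even-numbered 2-cell cells (48.3 to 65.5%), where the median bin had replicated in 69.6% of morula and 53.6% of 2-cell cells. The median rank of the members was 0.237 in morula and 0.542 in 2-cell cells. The difference of share per member had a median of −22.04 percentage points, against 13.5 points over all ranked bins, at median replication scores of 66.7% in these morula and 50.98% in these 2-cell cells. Relative to all bins the members were therefore lower by 35.5 points. Bins late in both morula and 2-cell cells were also lower relative to all bins (−24.3 points). A lower share in points was thus not particular to the members. The median rank difference was −0.33 for the members and −0.021 for bins late in both. Of the 4355 members, 3069 (70.5%) ranked at least 0.2 lower in morulae, against 23.2% of all ranked bins, and 61 (1.401%) ranked at least 0.2 higher, against 22.5% of all. A lower rank by any amount was found for 3997 members (91.8%), against 50.4% of all bins.

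Both limits of the rule were met again, in even-numbered cells, by 1784 members (40.96%), where 7.67% of all ranked bins met them. The late limit in morulae was met by 3882 members (89.1%, against 39.5% of all bins), but the early limit at the 2-cell stage by 2059 (47.3%, against 41.3% of all), and 1261 members (28.96%, against 41.5% of all) ranked 0.4 or less in 2-cell cells. The share of early bins among the members was thus close to that of all bins in these cells. Odd and even cells of a stage were scaled by the same mean per bin and may come from the same embryos, so they are not fully independent, and the part of this in the values was not tested.

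**Figure D1:**
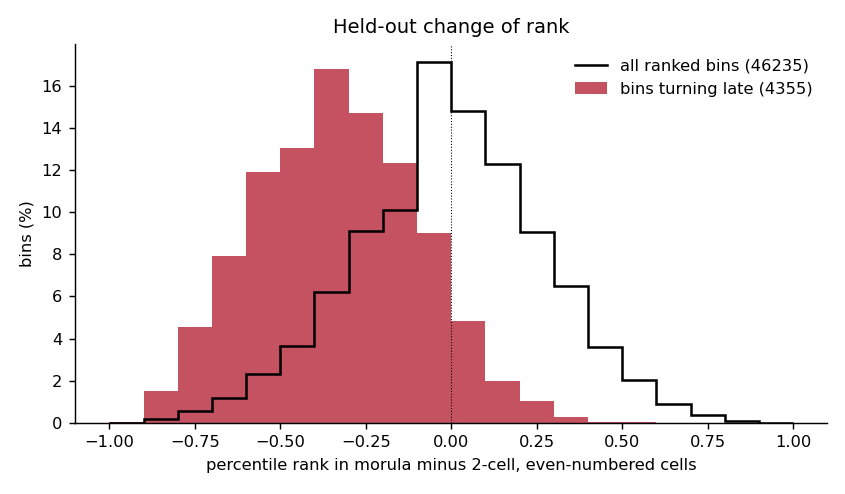
Percent of bins (y axis) by the difference of percentile rank between morula and 2-cell cells (x axis, even-numbered cells, steps of 0.1), for the 4355 bins turning late (red bars) and all 46235 ranked bins (black line). The red bars lie mostly left of 0, with a median of −0.33, whereas all ranked bins centre on 0.

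The rank of the members was lower in morulae than at the 2-cell stage on 19 of 19 chromosomes, with chromosome medians of the difference between −0.52 on chromosome 5 and −0.14 on chromosome 17. Members took between 4.14% of the ranked bins of chromosome 4 and 17.1% of those of chromosome 12, and chromosome 18 was next to it at 16.4%. On chromosomes 17 and 10 the members already ranked low in even-numbered 2-cell cells, with medians of 0.351 and 0.388, while on chromosomes 5 and 11 their median was 0.702.

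Over the 7 stages the rank of the members was lower at each step between the 2-cell and the 16-cell stage. Their median rank was 0.464 in zygotes, 0.542 in 2-cell, 0.381 in 4-cell, 0.272 in 8-cell and 0.230 in 16-cell embryos, 0.237 in morulae and 0.271 in the ICM. The median share of cells that had replicated them was 56.1% in zygotes, 55.2%, 30.9%, 37.5% and 32.5% at the 2-cell, 4-cell, 8-cell and 16-cell stages, 34.8% in morulae and 45.7% in the ICM. Bins early in both (10875, rank 0.6 or more in odd-numbered cells of both tables) stayed between 0.776 and 0.856 at all 7 stages, and the 10635 bins late in both (0.4 or less in both) between 0.152 and 0.194. The 4683 bins of opposite direction, late at the 2-cell stage and early in morulae, had 0.431 in zygotes, 0.462 in 2-cell and 0.713 in 4-cell embryos, 0.698 in morulae and 0.508 in the ICM. In zygotes and 2-cell embryos the members and these opposite bins thus lay close together, and both lay between the bins early in both and the bins late in both.

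**Figure D2:**
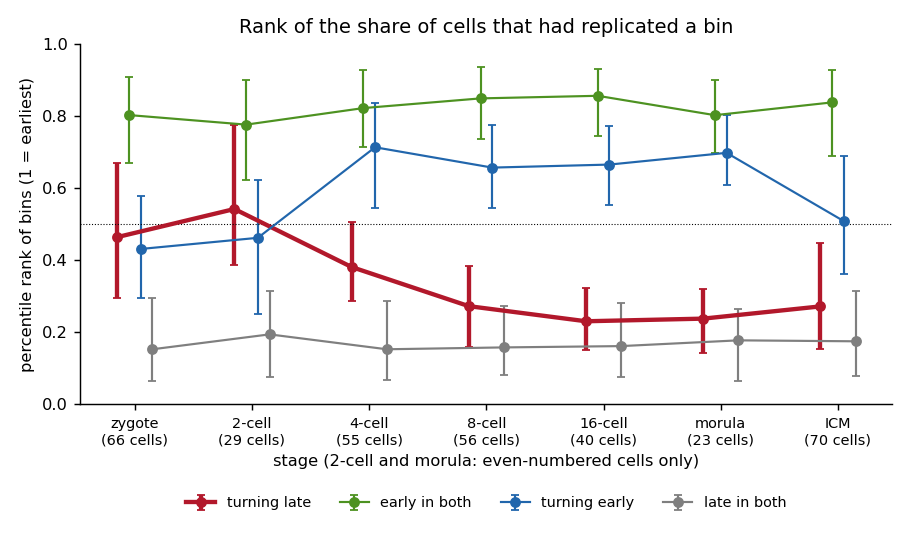
Median percentile rank (y axis, 1 is earliest, bars show the interquartile range over bins) at 7 stages (x axis, with the number of cells) of bins turning late (red), early in both (green), turning early (blue) and late in both (grey). Bins turning late lie at 0.464 in zygotes and 0.542 at the 2-cell stage and reach 0.230 at the 16-cell stage, near the bins late in both.

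The largest step was from the 2-cell to the 4-cell stage, with a median rank difference of −0.19. At the 4-cell stage 2054 members (47.2%) ranked at least 0.2 lower than in even-numbered 2-cell cells, against 19.4% of all bins, and 229 (5.26%) ranked at least 0.2 higher, against 18.8%. Between 8-cell and 4-cell cells 1435 members (32.95%, against 11.7% of all bins) were lower by this amount. Between 16-cell and 8-cell cells the count was 320 (7.35%, against 5.49% of all), with 44 members (1.01%, against 5.99%) higher. Between morula and 16-cell cells 70 members (1.61%, against 6.13%) were lower and 42 (0.964%, against 5.92%) higher. The members were lower than all bins on 19 of 19 chromosomes in the first of these steps, on 19 in the second, on 18 in the third and on 8 in the fourth. The 4-cell, 2-cell and morula comparisons share the even-numbered 2-cell cells, and neighbouring steps share a stage. Before this, 1415 members (32.5%, against 16.6% of all bins) ranked at least 0.2 higher in even-numbered 2-cell cells than in zygotes, and 651 (14.9%, against 16.7%) at least 0.2 lower.

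Cells of different collection hours differed within a stage at these bins. In the 11 8-cell cells of 72 h the members had a median rank of 0.550, against 0.265 in the other 45 cells, and all 8-cell cells together gave 0.272. In the 9 16-cell cells of 77 h the median rank was 0.512, against 0.227 in the 31 cells of 80 h, and all 16-cell cells gave 0.230. The 8-cell cells of 72 h had a median replication score of 45.7% and the others 48.7%, and the 16-cell cells of 77 h 31.1% and those of 80 h 65.4%. The part of hour and score in these values cannot be told apart at the 16-cell stage.

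In the ICM the members remained late but less so than in morulae. Their median rank was 0.271 in ICM cells and 0.237 in even-numbered morula cells, and the share of cells that had replicated them was 45.7% in ICM and 34.8% in morula cells. The difference per member had a median of 10.9 percentage points, against −8.01 over all bins, which is 18.9 points above all bins. Bins late in both had nearly the same, a median of 10.1 points or 18.2 points above all bins, so this gain in points was not particular to the members. The median rank difference was 0.057 for the members and 0.014 for bins late in both. Of the members, 797 (18.3%, against 13.9% of all bins) ranked at least 0.2 higher in the ICM and 32 (0.735%, against 14.4%) at least 0.2 lower. The ICM cells of 96 to 100 h (33 cells) had a median member rank of 0.266, and the 37 cells collected later one of 0.316. Of all members, 3285 (75.4%, against 36.5% of all bins) ranked below 0.5 in each of the 8-cell, 16-cell, morula and ICM tables.

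The members and the rest of the genome were also compared within single cells. For each cell, the percent of members that had replicated was set against the percent of the other ranked bins. In morulae the members were behind in 20 of 23 even-numbered cells (86.96%, exact 95% interval 66.4 to 97.2%), and at the 2-cell stage in 9 of 29 even-numbered cells (31.03%, 15.3 to 50.8%). The median difference was −33.5 percentage points in morula cells and 6.67 points in 2-cell cells. Members were behind in 22 of 66 zygotes, 37 of 55 4-cell, 36 of 56 8-cell, 32 of 40 16-cell and 48 of 70 ICM cells. The lowest single value was −50.95 points, in an ICM cell, and the lowest 2-cell value was −9.34 points.

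**Figure D3:**
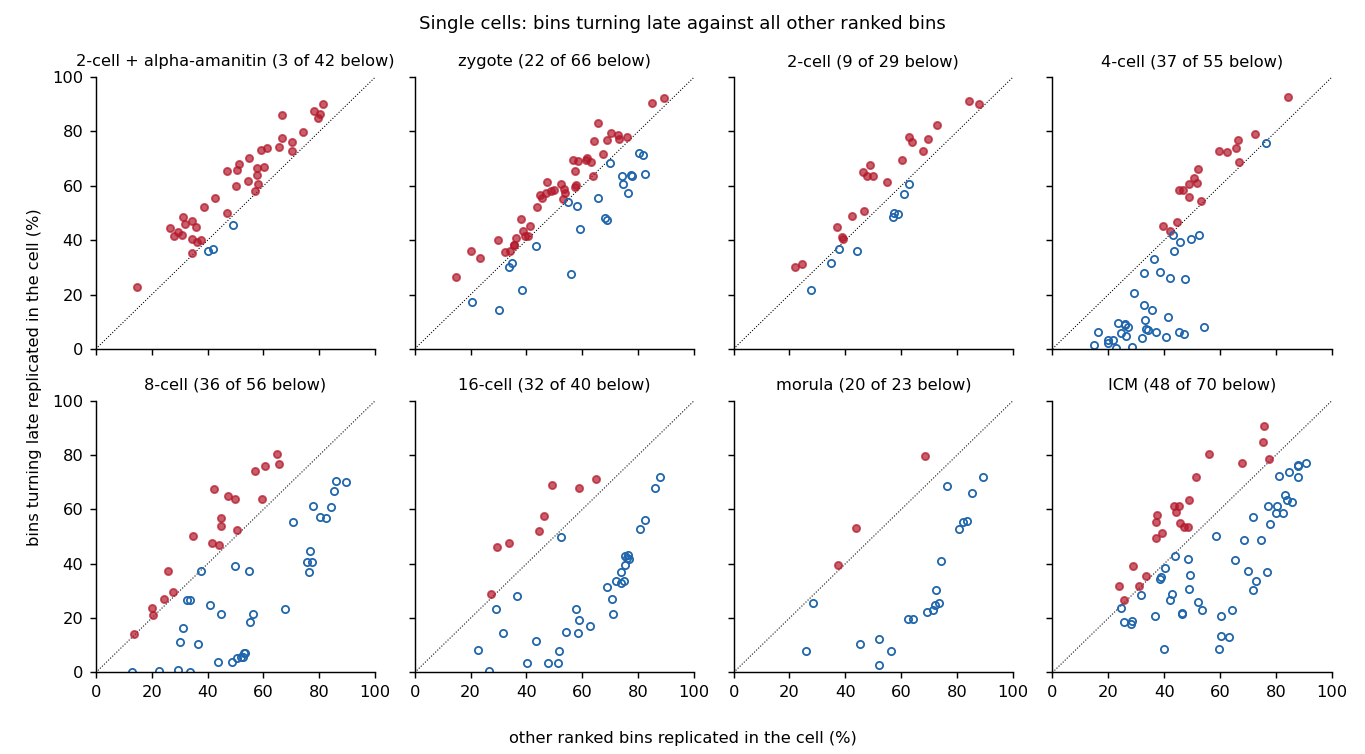
Percent of the bins turning late (y axis) against percent of all other ranked bins (x axis) that 1 cell had replicated, a point per cell, for 2-cell embryos in α-amanitin and 7 stages (2-cell and morula: even-numbered cells). Blue open points lie below the dotted line of equality, as do 20 of 23 morula cells but 9 of 29 2-cell cells and 3 of 42 cells in α-amanitin.

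The 4-cell stage held both kinds of cell. Among 4-cell cells with a score of 10 to 40% the members were behind in 26 of 27, with a median of 7.21% of the members replicated against 29.3% of the other bins. Among those with a score of 60 to 90% they were behind in 1 of 8, with medians of 74.9% of the members and 66.6% of the other bins. Morula cells with a score of 60 to 90% had still replicated a median of 46.8% of the members and 73.97% of the other bins, and members were behind in 13 of 14 of them. At the 8-cell stage members were behind in 12 of 19, 11 of 21 and 13 of 16 cells at scores of 10 to 40, 40 to 60 and 60 to 90%. At the 4-cell stage the members were thus behind mostly in cells with low scores, and in morulae also in cells with high scores.

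Among the even-numbered 2-cell cells the members were ahead in 13 of 13 cells collected at 37 h or later and in 7 of 16 collected before. This split at 37 h was chosen after the values were seen. Median differences were 9.26 points at 37 h or later and −1.49 points before, at median scores of 50.98% at 37 h or later and 51.6% before. With the same split, members were ahead in 30 of 35 later and 11 of 21 earlier cells of embryos with Kdm5b mRNA, in 31 of 44 later and 16 of 23 earlier cells in DRB, and in 19 of 20 later and 20 of 22 earlier cells in α-amanitin. Between hours, collection and embryo cannot be told apart.

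The treated 2-cell embryos were scaled and called apart from the control table, so they give the members in further 2-cell cells. In α-amanitin the members had their highest median rank of the 14 groups, 0.703 in treated and 0.542 in even-numbered control cells. They had replicated in a median of 59.5% of treated and 55.2% of control cells, and the median bin in 52.4% of treated and 53.6% of control cells. In α-amanitin 1586 members (36.4%, against 21.9% of all bins) ranked at least 0.2 higher than in control 2-cell cells and 587 (13.5%, against 22.5%) at least 0.2 lower. A lower rank by any amount was found for 1403 members (32.2%, against 48.8% of all bins). The difference of share per member was 3.04 percentage points, or 4.02 points above all bins, and 2.69 points above all bins in the hours shared by both groups. Members ranked 0.6 or more in α-amanitin in 63.1% of cases, against 40.2% of all ranked bins. Bins early in both did so in 65.1%, bins turning early in 14.1% and bins late in both in 16.6%. Bins late in both also lay higher in α-amanitin than in control cells, by 7.55 points above all bins. Of them 28.7% ranked at least 0.2 higher, against 21.9% of all bins, and 30.6% lower by any amount, against 48.8%. A higher rank than in control cells was thus not particular to the members. On 18 of 19 chromosomes the members' median difference from control lay above that of all bins. In single cells, members were behind in 3 of 42 cells in α-amanitin (7.14%, exact 95% interval 1.498 to 19.5%), against 9 of 29 control cells. At 37 h or later they were behind in 1 of 20 treated and 0 of 13 control cells, and before 37 h in 2 of 22 treated and 9 of 16 control cells. Control cells were collected at 32 to 40 h and treated cells at 34 to 39 h, and the part of hour in these counts was not tested.

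The median rank of the members was 0.576 in DRB, 0.546 with Kdm5b and 0.542 in even-numbered control cells. In DRB 748 members (17.2%, against 13.3% of all bins) ranked at least 0.2 higher than in control cells and 754 (17.3%, against 13.6%) at least 0.2 lower. With Kdm5b 665 (15.3%, against 15.4%) were higher and 891 (20.5%, against 16.4%) lower. Relative to all bins the share of cells differed by 0.901 points in DRB and −0.924 points with Kdm5b. The 3 treated groups share the same control cells. Across members, the rank in even-numbered 2-cell cells correlated with that in DRB at a Spearman's R of 0.550 and with that in α-amanitin at 0.321 (4355 bins, which are not independent, as neighbours share segments). Of all members, 1349 (30.98%, against 26.9% of all bins) ranked above 0.5 in all 4 tables of 2-cell embryos. In all, 861 members (19.8%, against 2.83% of all bins) ranked above 0.5 in these 4 tables and below 0.5 in each of the 8-cell, 16-cell, morula and ICM tables.

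In 1-cell embryos the members lay near the middle of all bins with a wide spread. Their median rank was 0.464 in zygotes (interquartile range 0.295 to 0.670), 0.597 in IVF zygotes, 0.525 in parthenotes, 0.513 in maternal and 0.469 in paternal pronuclei. They ranked at least 0.2 higher in IVF zygotes than in zygotes in 1446 bins (33.2%, against 17.6% of all bins), and at least 0.2 lower in 369 (8.47%, against 17.9%). Between parthenotes and IVF zygotes 517 members (11.9%, against 16.0%) were higher and 1060 (24.3%, against 15.6%) lower. Between maternal and paternal pronuclei 1448 members (33.2%, against 20.8%) were higher and 833 (19.1%, against 22.6%) lower, at 21 maternal and 17 paternal cells. Both pronuclei of a zygote were collected, so cells of both groups can come from 1 zygote, but the labels do not say which pronuclei belong together. In the single cells, members were behind in 19 of 57 IVF zygotes, 25 of 57 parthenotes, 8 of 21 maternal and 7 of 17 paternal pronuclei.

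The 4355 members formed 536 domains with a median of 5 bins (250 kb), of which 99 held 1 bin. The 162 domains of 10 or more bins held 3029 members (69.6%). Of these 162, 157 ranked lower in even-numbered morula than in even-numbered 2-cell cells, 161 ranked below 0.5 in morulae, 138 below 0.5 in the ICM and 111 above 0.5 at the 2-cell stage. Their share of replicated cells in morulae minus that at the 2-cell stage ran between −60.8 and 18.0 percentage points, with a median of −24.2. Larger domains differed more in rank, by a median of −0.39 for bins in domains of 20 or more bins, −0.38 for those of 10 to 19, −0.25 for those of 5 to 9 and −0.21 for those of 1 to 4. Adjacent bins share states through the smoothing and segmentation of each cell, so the length of a domain is set in part by processing.

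By the ranks in odd-numbered cells, domains lay next to bins late in both more often than next to bins early in both. The same ranks chose the members and set the domain ends, so these counts are a description only. Beyond the bins between the limits, the next classified bin was late in both at 462 of 1072 domain ends (43.1%), early in both at 232 (21.6%), another member at 346 (32.3%) and a bin turning early at 32 (2.99%). Among all ranked bins, 23.002% were late in both, 23.5% early in both and 10.1% turning early, which is not a share expected at the ends of chosen runs. At the edges of the 162 larger domains the mean rank changed smoothly. With negative distances outside the domain, it was 0.227 in morulae at 225 kb, 0.270 at −25 kb and 0.407 at −475 kb. In α-amanitin the same distances had 0.681, 0.630 and 0.582, and in even-numbered 2-cell cells 0.613, 0.557 and 0.510. The inside of the domains thus lay at the early end of its surroundings in both 2-cell groups and at the late end in morulae.

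**Figure D4:**
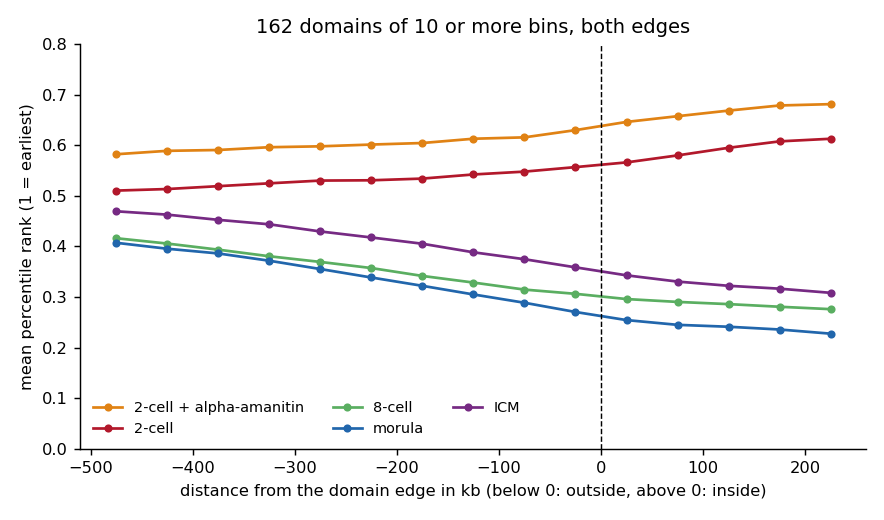
Mean percentile rank (y axis, 1 is earliest) of bins by distance from the edge of the 162 domains of 10 or more bins (x axis, kb, negative outside, both edges pooled) for 2-cell embryos in α-amanitin, 2-cell, 8-cell, morula and ICM cells. Towards the inside the ranks go up in α-amanitin (0.582 to 0.681) and go down in morulae (0.407 to 0.227).

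The domain with the largest difference held no protein-coding gene, chr13:25750001-26400000 (13 bins). Most of it had replicated in 5 of 23 morula cells (exact 95% interval 7.46 to 43.7%) and in 26 of 29 2-cell cells (72.6 to 97.8%) of the even-numbered sets. It was picked, as were the next 4 domains, for the size of this difference, so its values are a description. Its mean rank was 0.546 in zygotes, 0.983 in 2-cell, 0.481 in 4-cell, 0.226 in 8-cell and 0.226 in 16-cell embryos, 0.160 in morulae and 0.132 in the ICM. It was at 0.988 in α-amanitin, 0.675 in DRB and 0.605 with Kdm5b, and at 0.905 in maternal and 0.345 in paternal pronuclei. This domain was thus among the earliest bins of both control and α-amanitin 2-cell embryos.

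Among the domains with genes, the one of Chl1 (chr6:103150001-104100000, 19 bins), a neural cell adhesion molecule of the L1 family, had replicated in 4 of 23 morula cells (4.95 to 38.8%) and 19 of 29 2-cell cells (45.7 to 82.1%). Its mean rank over the stages was 0.311 in zygotes, 0.784, 0.368, 0.0696 and 0.231 at the 2-cell, 4-cell, 8-cell and 16-cell stages, 0.0580 in morulae and 0.0544 in the ICM. In α-amanitin it was at 0.996, with 36 of 42 cells. Next to it on chromosome 6, the domain of Cntn6 (chr6:104300001-104850000, 11 bins), which encodes contactin 6, a GPI-anchored adhesion molecule, had replicated in 3 of 23 morula and 18 of 29 2-cell cells. The Cntn6 domain ranked 0.891 in α-amanitin and 0.0562 in morulae. Chl1 and Cntn6 were thus early in α-amanitin and among the latest bins in morulae. In DRB the Chl1 domain ranked 0.566 and the Cntn6 domain 0.253, and with Kdm5b 0.460 (Chl1) and 0.301 (Cntn6). The Cntn6 domain was thus late in these 2 tables of 2-cell embryos.

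The domain of Pcdh7 (chr5:57400001-58200000, 16 bins), a protocadherin, had replicated in 3 of 23 morula cells (2.78 to 33.6%) and 21 of 29 2-cell cells (52.8 to 87.3%), with mean ranks of 0.0885 in morula and 0.831 in 2-cell cells. Its rank was 0.162 in zygotes and 0.809 in α-amanitin but 0.357 in DRB and 0.414 with Kdm5b. The domain at the start of Lsamp (chr16:39750001-40450000, 14 bins), which encodes the limbic system-associated membrane protein, had replicated in 4 of 23 morula cells (4.95 to 38.8%) and 22 of 29 2-cell cells (56.5 to 89.7%). It ranked 0.804 in α-amanitin, 0.889 in DRB and 0.608 with Kdm5b. All 5 domains thus ranked 0.6 or more in α-amanitin, as in control 2-cell cells. In DRB and with Kdm5b the chromosome 13 and Lsamp domains did so too, but those of Chl1, Cntn6 and Pcdh7 ranked below 0.6 in both.

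The longest domain spanned 4000 kb around Flrt2 (chr12:92300001-96300000, 80 bins), a transmembrane ligand that guides axons and vessels. It had replicated in 2 of 23 morula cells (1.07 to 28.04%) and 12 of 29 2-cell cells (23.5 to 61.1%). Its mean rank was 0.0743 in morulae and 0.357 at the 2-cell stage, so in even-numbered cells it was late in both, and it was 0.604 in α-amanitin. The domain of Sorcs3 and Sorcs1 (chr19:48500001-50850000, 47 bins), sorting receptors of neurons, was at 0.143 in morula and 0.549 in 2-cell cells. The domain of Nr2f2 and Arrdc4 (chr7:68600001-70700000, 42 bins), of which Nr2f2 encodes the nuclear receptor COUP-TFII, was at 0.190 in morula and 0.875 in 2-cell cells, and at 0.904 in DRB and 0.934 with Kdm5b. It had replicated in 5 of 23 morula cells (7.46 to 43.7%) and 23 of 29 2-cell cells (60.3 to 92.01%). The domain of Robo2 (chr16:74050001-76000000, 39 bins), a receptor for Slit guidance proteins, was at 0.0811 in morula and 0.619 in 2-cell cells and at 0.836 in α-amanitin. The domain of Wdr17 and Gpm6a (chr8:53150001-55100000, 39 bins) was at 0.201 in morula and 0.420 in 2-cell cells. Of the 5 longest domains, that of Nr2f2 was the only one ranked above 0.6 in all 4 tables of 2-cell embryos.

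The 2 domains of 10 or more bins with the smallest difference in the late direction were not later in morulae. The domain of Dscam (chr16:96600001-97200000, 12 bins), an adhesion molecule of the immunoglobulin family, had replicated in 16 of 23 morula cells (47.1 to 86.8%) and 13 of 29 2-cell cells (26.4 to 64.3%), at mean ranks of 0.485 in morula and 0.448 in 2-cell cells, and at 0.160 in α-amanitin. The domain of Nav3 and Syt1 (chr10:108950001-109700000, 15 bins), where Syt1 encodes the calcium sensor of synaptic vesicles, had replicated in 12 of 23 morula and 11 of 29 2-cell cells. Dscam also had the highest GC content of the 12 named domains, 42.97%, where the others had 36.8 to 40.2%.

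**Figure D5:**
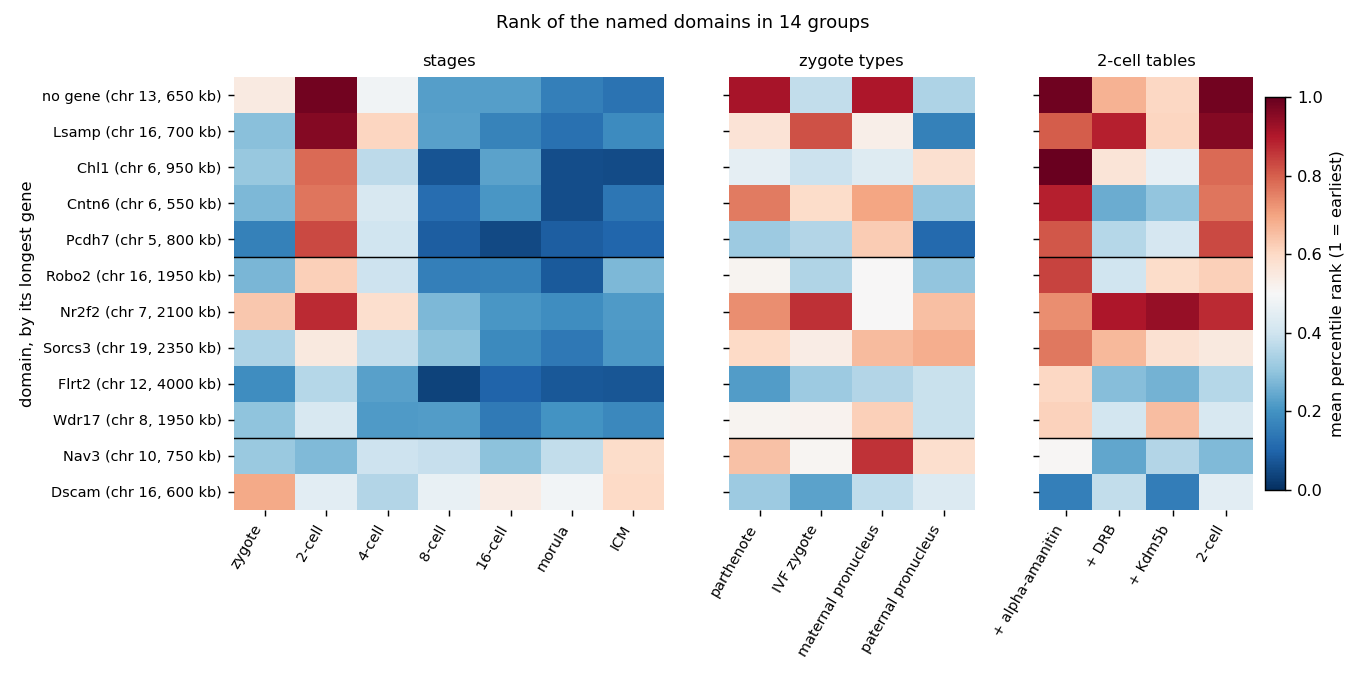
Mean percentile rank (colour, red early and blue late) of the 12 named domains (rows, the 5 with the largest difference, then the 5 longest, then the 2 least late) over 7 stages, 4 zygote types and the 4 tables of 2-cell embryos (columns). The upper 5 rows are red in control 2-cell cells (0.768 to 0.983) and blue in morulae (0.0562 to 0.160), and the Dscam row has 0.160 in α-amanitin.

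The members were AT-rich and gene-poor, which the rule did not use. Their median GC content was 38.8% (interquartile range 37.4 to 40.5%), against 41.4% over all ranked bins, and it was below that of all bins on 19 of 19 chromosomes. Bins late in both had 38.2%, bins early in both 43.8% and bins turning early 46.05%. CpG density was 5.84 per kb in members and 7.82 per kb in all bins, also lower on 19 of 19 chromosomes. Repeat-masked sequence made up a median of 30.4% of the members, 30.9% of all bins and 41.7% of the bins late in both, so the members were close to the bins late in both in GC content and to all bins in repeats. Of the members 58.5% overlapped no protein-coding gene, against 41.6% of all bins and 68.1% of the bins late in both. The start of a gene lay in 7.72% of the members, 27.9% of all bins and 14.3% of the bins late in both. In contrast, 20.9% of the members lay in a gene of over 500 kb, against 8.51% of all bins and 9.52% of the bins late in both.

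Base composition and rank ran together in some groups and not in others. Across the 4351 members with sequence, Spearman's R between GC content and rank was 0.561 in even-numbered morula cells, 0.609 in zygotes, 0.408 in the ICM, 0.263 in even-numbered 2-cell cells and −0.102 in α-amanitin. Over all ranked bins the values were 0.688 in morula, 0.436 in zygotes, 0.412 in the ICM, 0.377 in 2-cell cells and −0.049 in α-amanitin. Bins are not independent, libraries are shared by all bins of a group, and base composition can also act on read depth, so these are descriptions.

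Of 19841 protein-coding genes with a ranked bin (GENCODE M21), 391 (1.97%) had at least 50% of their bins in the members. These genes were long, with a median of 60.2 kb against 18.3 kb over all genes, and 48 of the 217 genes of over 500 kb (22.1%) were among them. Of the 391 genes, 351 (89.8%, against 31.2% of all genes) ranked lower in even-numbered morula than in 2-cell cells, with a median rank difference of −0.30, against 0.12 over all genes. Genes as a whole thus ranked earlier in morulae, and these genes later.

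By the share of their genes in the members, the highest of the 22 lists were long neuronal genes, synapse organizers and non-clustered protocadherins, against 1.97% of all genes. The lists were chosen with earlier results of these data known, so their shares are a description only. For long genes the closer comparison is the 22.1% of all genes over 500 kb that were in the members, and the part of gene length was not tested. Of 33 long neuronal genes 14 (42.4%) were in the members, among them Robo2, Lsamp, Ctnna2, which encodes αN-catenin, Cntnap5b, Robo1, Ptprd, Nrxn3, and Dcc, the netrin receptor. In the whole list 18 of 33 genes ranked at least 0.2 lower in morulae than at the 2-cell stage, against 9.46% of all genes, and 0 at least 0.2 higher, against 35.7%. Of 34 synapse organizers 12 (35.3%) were members, such as Lrrtm1, Lrfn5, Lrrtm4, Lrrc4c and Flrt2, which encode leucine-rich repeat proteins of the synapse. Of 10 non-clustered protocadherins 3 (Pcdh7, Pcdh9 and Pcdh15), of 16 contactin and Cntnap genes 4 (Cntn6, Chl1, Cntnap5b and Cntn5), of 23 cadherins 5 (Cdh11, Cdh2, Cdh9, Cdh8 and Cdh10) and of 66 axon guidance genes 8 were members. By the whole lists, 14 synapse organizers ranked at least 0.2 lower in morulae and 6 at least 0.2 higher, 4 protocadherins lower and 0 higher, and 6 contactin and Cntnap genes lower and 1 higher. Cadherins, with 5 lower and 7 higher, and axon guidance genes, with 17 lower and 15 higher, went both ways. The lists overlap, since Robo2, Pcdh9 or Nrxn3 stand in more than 1.

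Of 25 glutamate receptor genes 1 (4%) was a member, Grm7, of 19 GABA and glycine receptor genes 0, and of 91 potassium channel genes 6 (6.59%, against 1.97% of all genes), such as Kcnj2, Kcnj16, Kcnh8 and Kcna4. By the whole lists, 8 GABA and glycine receptor genes ranked at least 0.2 lower in morulae and 2 at least 0.2 higher. Glutamate receptor genes had 5 lower and 8 higher, and potassium channel genes 22 lower and 34 higher. Over all genes 9.46% were lower and 35.7% higher. No member was found among 1071 olfactory receptor, 204 vomeronasal receptor or 39 Hox genes. Olfactory receptor genes were late in both, with median ranks of 0.237 in morula and 0.0525 in 2-cell cells. Hox genes had medians of 0.609 in morula and 0.843 in 2-cell cells, and 20 of 39 ranked at least 0.2 lower in morulae. Of 180 homeobox, forkhead and related developmental regulators 10 (5.56%, against 1.97% of all genes) were members, among them Irx1, Pou4f1, Alx1, Neurod1 and Foxa2.

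Genes known from the embryo and oocyte and genes of general cell function were counted in the same way, and at 1.97% of all genes such short lists would hold about 1 member or none. None of 23 pluripotency, 18 trophectoderm, 28 housekeeping, 28 ribosome biogenesis or 26 oocyte genes was a member, and of 20 primitive endoderm genes 1 was, Foxa2. Of 16 measured genes of major genome activation 1 was a member, Zfp352, a gene of the 2-cell stage, which ranked 0.209 in morula and 0.250 in even-numbered 2-cell cells. Its bin was thus late at the 2-cell stage in even-numbered cells, at 0.295 in zygotes, 0.561 in α-amanitin and 0.716 in DRB. Of 324 zinc finger genes 2 were members, Zfp352 and Zfp516.

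Among genes of 4 or more bins, those with the largest difference in even-numbered cells were Cntn6, Pcdh7, Mdga2, Chl1, Robo2 and Sorcs1. Cntn6 (chr6:104492790-104863406) had replicated in a mean of 10.6% of morula and 65.5% of 2-cell cells over its bins. Pcdh7 (chr5:57717967-58133230) had 16.4% in morula and 70.5% in 2-cell cells. Mdga2 (chr12:66466060-67222549), a membrane protein that binds neuroligins, had 15.8% in morula and 69.8% in 2-cell cells and 38.2% in the ICM. Chl1 (chr6:103510586-103750211) had 14.5% in morula and 67.2% in 2-cell cells, and 84.1% in α-amanitin. Robo2 (chr16:73891839-74411825) had 22.5% in morula and 70.7% in 2-cell cells, and 53.5% in the ICM. Sorcs1 (chr19:50143299-50678646) had 13.04% in morula and 60.9% in 2-cell cells. These 6 genes were picked for this difference, and in the ICM their shares lay between those of morula and 2-cell cells.

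The 10 longest genes of the members were picked by length and not by the size of their difference in even-numbered cells. Genes of the members rest on bins that odd-numbered cells had chosen as early at the 2-cell stage and late in morulae. A low place in morulae was thus part of how these 10 genes were chosen. The 10 genes differed among themselves. Ptprd (chr4:75941238-78211961), a receptor tyrosine phosphatase that organizes synapses, had replicated in 22.02% of morula and 56.4% of 2-cell cells. Lsamp had 21.26% in morula and 64.8% in 2-cell cells, and Nrxn3, a presynaptic adhesion receptor, 47.2% in morula and 71.996% in 2-cell cells. Lrrc4c had 12.2% in morula and 46.5% in 2-cell cells, Gpc5, a glypican, 20% in morula and 48.2% in 2-cell cells, and Cntn5 30.6% in morula and 57.4% in 2-cell cells. Pcdh15, a protein of the hair cell tip link, had 30.7% in morula and 43.1% in 2-cell cells, Macrod2 37.4% in morula and 48.4% in 2-cell cells, and Ccser1 48.2% in morula and 55.9% in 2-cell cells. Ctnna3, which encodes αT-catenin, had 52.3% in morula and 49.1% in 2-cell cells. Relative to the median bin, which had replicated in 69.6% of morula and 53.6% of 2-cell cells, all 10 were low in morulae, and Lsamp, Nrxn3, Ptprd, Cntn5 and Ccser1 were above it at the 2-cell stage.

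Among the synapse organizers, Lrfn5 had replicated in 3.804% of morula and 44.8% of 2-cell cells, Lrrtm1 in 19.6% of morula and 67.2% of 2-cell cells, and Lrrtm4 in 22.3% of morula and 60.4% of 2-cell cells. Lrrtm1 lies within Ctnna2, which had 18.1% in morula and 59.8% in 2-cell cells, so both share bins. Among cadherins, which join cells by calcium-dependent contacts, Cdh11 had 13.04% in morula and 40.2% in 2-cell cells and Cdh2, N-cadherin, 24.6% in morula and 51.1% in 2-cell cells. Of the guidance receptors, Robo1 had 34.8% in morula and 69.2% in 2-cell cells, Dcc 37.996% in morula and 64.8% in 2-cell cells, and Epha3, an ephrin receptor, 35.9% in morula and 56.5% in 2-cell cells. Robo1 had 62.7% in the ICM and 80.3% in α-amanitin. The potassium channel gene Kcnj2 had 30.4% in morula and 62.1% in 2-cell cells, and the glutamate receptor gene Grm7 17.6% in morula and 54.3% in 2-cell cells.

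The developmental regulators in the members were mostly single bins. Irx1, a homeobox gene, had replicated in 21.7% of morula and 65.5% of 2-cell cells, and Pou4f1, a POU factor of sensory neurons, in 26.1% of morula and 65.5% of 2-cell cells. Alx1 and Neurod1, a basic helix-loop-helix factor of neurons, both had 26.1% in morula and 62.1% in 2-cell cells, but 65% for Alx1 and 64.3% for Neurod1 in the ICM, so both were higher in the ICM than in morulae. Foxa2, a forkhead factor of endoderm, had 39.1% in morula, 58.6% in 2-cell and 47.1% in ICM cells. At 23 morula and 29 2-cell cells, a share in a single bin has a wide interval, as given above.

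The genes of 4 or more bins with the smallest difference in the late direction were Klf12, a Krüppel-like factor with 69.1% in morula and 47.9% in 2-cell cells, Dscam with 68.6% in morula and 51.5% in 2-cell cells, and Sptlc3, a subunit of serine palmitoyltransferase, with 63.04% in morula and 46.6% in 2-cell cells. Zfp516 had 69.6% in morula and 50.6% in 2-cell cells. These 4 genes met the rule in odd-numbered cells and were near the median bin in even-numbered morula cells.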

How the data were processed

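Single-cell Repli-seq tables of 14 groups were analysed, with 733 cells that have states, of 1016 labelled samples. The other 283 samples were not analysed here, and 0 columns of the tables were left out for lack of a label. Upstream, the authors used Bowtie2 2.3.5 for alignment, SAMtools 1.9 to keep unique pairs of mapping quality 20 or more, and bedtools 2.29.0 to count reads in 50 kb bins. They divided each cell by the mean of the bin over cells of its stage, masked the lowest 5% and highest 1% of bins, smoothed by a running median of 15 bins, segmented, and fitted a mixture of 2 components. The deposited values are binary states, neither counts nor a score, and no G1 or G2 cells were used for correction.

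From the states, 714 cells with a replication score of 10 to 90% were kept, the share of cells that had replicated each bin was ranked per group, and ranks were averaged over domains and genes. Cells that fail the study's quality filter were kept in the main values. Among the cells described, they were 13 of 66 zygotes, 2 of 29 2-cell, 5 of 55 4-cell and 7 of 56 8-cell cells. They were also 5 of 40 16-cell, 3 of 23 morula and 7 of 57 parthenote cells, 1 of 57 IVF zygotes and 1 of 21 maternal pronuclei. A rank difference of 0.2 or more is counted. Python 3.11.15, numpy 2.4.6, pandas 2.3.3, scipy 1.17.1 and matplotlib 3.10.9 were used, and the scripts were tested on simulated data. Named were the 5 longest domains, the 5 of 10 or more bins with the largest difference in even-numbered cells and the 2 with the smallest, and likewise the 10 longest genes, 6 genes of 4 or more bins with the largest and 3 with the smallest difference, and up to 4 genes per list. The bins and gene lists were chosen with earlier results of these data known. Gene models were GENCODE M21, and sequences were RefSeq GRCm38.p6. Each group is 1 sample, so no test was made. Alternatives changed the score range, rank limits, cells that choose, cells called, domain length, hours, the study's quality filter and the averaging over S phase.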

Additional observations from a re-analysis of the deposited data

How the results depend on the processing

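In all, 166 values were recomputed for 24 results, and 124 of 143 signed values kept their sign. The exceptions were both pronuclear groups, whose reported difference from the median bin is 0, parthenotes and Kdm5b, which came to 0, DRB, and zygotes, where the sign turned when even-numbered cells chose the members (1.52 against −1.52 points). With rank limits of 0.7 and 0.3 there were 2492 members, 99 domains of 10 or more bins and 191 genes in the members. Over all alternatives there were 2492 to 4706 members, 99 to 174 such domains and 191 to 482 genes. Relative to all bins, the difference between even-numbered morula and 2-cell cells ran between −40.2 and −30.3 percentage points, and the share of members that met the rule again between 29.3 and 50.3%. The members' share in morulae relative to the median bin ran between −40 and −29.2 points. The difference between ICM and morula cells ran between 13.97 and 21.97 points, that between α-amanitin and control 2-cell cells between 1.82 and 4.27, between DRB and control between −1.22 and 1.67, and between Kdm5b and control between −3.87 and 0. The negative value of DRB came from the hours shared by both groups. No paired analysis was possible because no test was made and the labels do not say that equal numbers mark cells of 1 embryo, or pronuclei of 1 zygote. Precision is limited by 23 morula and 29 2-cell cells, by the bin mean that odd and even cells share, and by embryos that the labels do not name.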
